A study of Mus musculus with 12 samples.

Results

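Mouse embryonic stem cells were compared at day 3 and at day 1 of a time course in which the histone deacetylases HDAC1 and HDAC2 are removed. The 3 arrays of day 3 (day 3 replicates 1 to 3, OHT) and the 3 arrays of day 1 (day 1 replicates 1 to 3, OHT) were chosen by their titles and are 6 of the 12 arrays of the series, whose other arrays are of days 0 and 2. All groups carry the genotype Hdac1lox/lox, Hdac2lox/lox; CreER in the E14 background, in which both copies of each gene are flanked by loxP sites and a CreER fusion protein becomes active in 4-hydroxytamoxifen (OHT). Cells were kept on gelatin with serum and LIF and without feeder cells, were exposed to OHT for 16 hours, and gave total RNA that was labelled with biotin for Illumina bead arrays. The labels do not say whether the 3 arrays of a day came from separate cultures or how many clones the line represents, and the p-values therefore cover the spread among these arrays alone. Cells without loxP sites that received OHT are not among the samples, so gene loss, the time since OHT and the days in culture cannot be told apart between days 1 and 3.

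HDAC1 and HDAC2 are closely related enzymes that remove acetyl groups from histone tails. They work as the catalytic subunits of the Sin3, NuRD and CoREST corepressor complexes, which transcription factors recruit to genes they hold down, and histone acetyltransferases do the reverse reaction. Embryonic stem cells in serum and LIF self-renew through Pou5f1, Sox2, Nanog and their partners, and leave that state towards epiblast, germ layer or extra-embryonic fates.

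After background correction and quantile normalization, all values below are log2 intensities, which are relative levels of 1 probe and cannot be set against those of another probe. Correlations across all genes tested were 0.980 to 0.989 within day 3, 0.991 to 0.993 within day 1 and 0.961 to 0.971 between the days, and the first principal component of the 6 arrays held 62.6% of their variance and separated the days. Before normalization the upper-quartile intensity was 312.9, 272.2 and 371.2 on the day 3 arrays and 320.7, 282.0 and 333.3 on the day 1 arrays. Detected probes numbered 16454, 14509 and 16492 on the day 3 arrays and 16096, 15288 and 15102 on the day 1 arrays. Day 3 replicate 2 was the dimmest array and had the fewest detected probes. No probe of Hdac1 was analysed here. The brighter probe of Hdac2 read 13.24, 13.12 and 13.60 on the day 3 arrays, against 13.57, 13.39 and 13.51 on the day 1 arrays, a difference of -0.17 ± 0.14 (SE; limma adjusted p = 0.414 among all probes). Over 1 probe per gene its adjusted p was 0.38, and 0.0259 when arrays were scaled to the 75th percentile. A dimmer Hdac2 probe was detected on 0 of 3 day 3 arrays and 2 of 3 day 1 arrays, with no difference past the test (adjusted p = 0.162). Whether either probe lies in the deleted part is not known here, so the deletion itself was not checked by these arrays.

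Between day 1 and day 3, 2979 of 9934 genes tested changed at an adjusted p under 0.05 (30.0%), of which 1591 rose (16.0% of the genes tested) and 1388 fell (14.0%). The test was limma's moderated test of a difference between day means, with Benjamini-Hochberg adjustment over all genes. Without adjustment, 4045 genes had a p under 0.05. The median difference was 0.72 among the rises and 0.64 in size among the falls, against a median standard error of 0.158 and a median difference of -0.0065 over all genes. A change of at least 2-fold in genes detected at both days was seen for 291 rises and 138 falls. A further 210 risen genes were undetected on all 3 day 1 arrays, 138 of them detected on all 3 day 3 arrays, and 88 fallen genes were undetected on all 3 day 3 arrays, 39 of them detected on all 3 day 1 arrays. The 3 arrays of each day did not overlap for 42.9% of all genes tested. With no scaling between arrays, 549 genes were called, of which 64.8% rose, against 53.4% of the 2979, and 117 of the 189 calls of genes named below were ended; other alternatives are given beside the genes whose call they end. A call is written as lost where the adjusted p was 0.05 or more, and arrays named there were left out 1 at a time. Square brackets after the median difference of a gene list give its lowest and highest value over all settings, those with 1 array left out included. Shares of a list are of its measured members. A member undetected at day 1 is measured only if other days detect it, which can raise the share that rose.

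**Figure D1:**
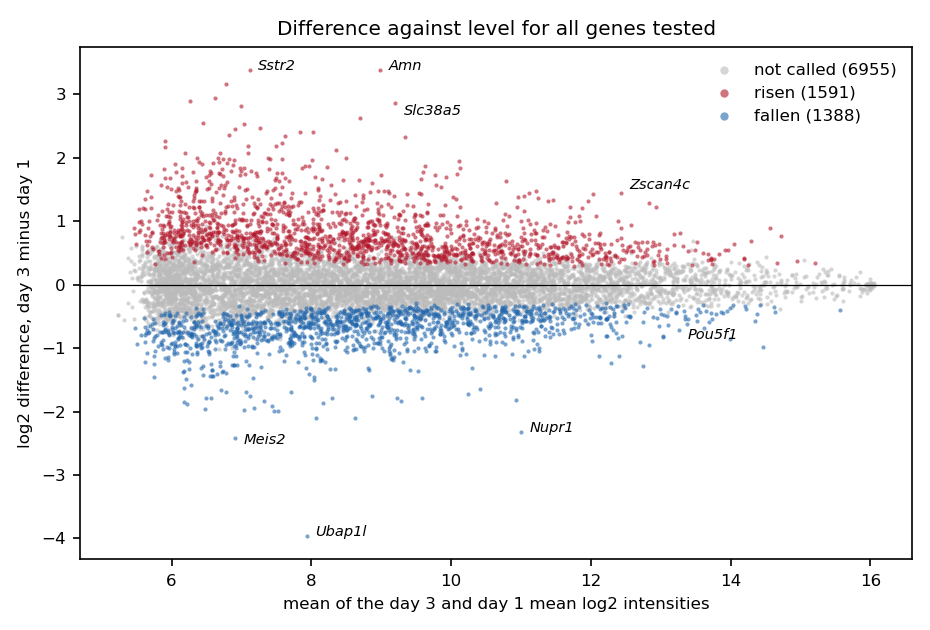
Log2 difference of day 3 minus day 1 (vertical axis) against the mean of the 2 day means in log2 intensity (horizontal axis), 1 point per gene for 9934 genes. The 1591 risen genes lie above 0 and the 1388 fallen genes below it, rises of more than 3 are at low to middle levels, and Ubap1l lies below all other genes at -3.96.

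The 12 genes of either direction given first were ranked by the fitted difference, which for a gene undetected at a day rests on a value not above background. Sstr2, a receptor for the hormone somatostatin, read 8.78, 8.74 and 8.90 on the day 3 arrays, against 5.35, 5.34 and 5.59 on the day 1 arrays. It was undetected on all day 1 arrays, so the rise is given as at least 6.36-fold higher (adjusted p = 2.83e-08). Amn, which encodes amnionless, a membrane protein of visceral endoderm, read 10.78, 10.81 and 10.42 on the day 3 arrays, against 7.61, 7.19 and 7.07 on the day 1 arrays. The lowest day 3 array lay far above the highest day 1 array for both genes, and the difference for Amn was 3.38 ± 0.16, or 10.4-fold (adjusted p = 5.85e-08). Slc38a5, a glutamine and neutral amino acid transporter, read 10.68, 10.49 and 10.73 on the day 3 arrays, against 7.83, 7.85 and 7.62 on the day 1 arrays, a difference of 2.87 ± 0.11 (adjusted p = 1.35e-08). Its arrays did not overlap and it was detected on all 6. Ttc9b, a gene of the REST list below, rose by 2.62 ± 0.18 (adjusted p = 1.48e-06), and Sema7a, a membrane-anchored semaphorin, rose by 2.47 ± 0.30 (adjusted p = 8.24e-05).

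The other 7 of the 12 largest rises were of genes undetected on every day 1 array and detected on every day 3 array. They were Crygd, a lens crystallin (at least 4.67-fold higher), Actc1, the cardiac muscle actin (at least 3.88-fold higher), Akr1cl, an aldo-keto reductase family gene (at least 4.82-fold higher), Cmtm8 (at least 4.48-fold higher), Nrip3 (at least 4.01-fold higher), the pancreatic-type ribonuclease Rnase1 (at least 2.99-fold higher) and Krtdap, a keratinocyte differentiation gene (at least 2.97-fold higher). Day 2 means of Sstr2, Amn and Slc38a5 lay between those of days 1 and 3. Crygd, for instance, read 8.28, 8.30 and 8.50 on the day 3 arrays, against 5.08, 5.31 and 5.20 on the day 1 arrays, with no overlap.

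Ubap1l, a gene related to the ubiquitin-binding UBAP1, fell the most. It read 6.205, 5.94 and 5.72 on the day 3 arrays, against 9.93, 10.001 and 9.81 on the day 1 arrays, a difference of -3.96 ± 0.18, or 15.6-fold lower (adjusted p = 3.34e-08). It was detected on 1 of 3 day 3 arrays, and the highest day 3 array lay well below the lowest day 1 array. Meis2, a TALE homeobox transcription factor, read 6.11, 5.22 and 5.79 on the day 3 arrays, against 8.22, 8.22 and 7.91 on the day 1 arrays, a difference of -2.41 ± 0.20 (adjusted p = 5.02e-06). Nupr1, a small stress-induced nuclear protein, read 9.82, 10.37 and 9.35 on the day 3 arrays, against 12.04, 12.35 and 12.10 on the day 1 arrays, a difference of -2.32 ± 0.23 (adjusted p = 1.71e-05). Day 3 replicates spread more than day 1 replicates for Nupr1, but the days did not overlap.

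Of the other large falls, growth factor genes were Fgf4, the main FGF that embryonic stem cells secrete (-1.98 ± 0.21), and Fgf17 (-1.84 ± 0.14). Ccnd2, encoding the cell cycle protein cyclin D2, fell by 1.87 ± 0.17, and the enzyme genes Accsl and Hsd17b1, the second making estradiol, fell by 2.10 ± 0.12 and 1.99 ± 0.15. Slc6a15, a neutral amino acid transporter, fell by 1.91 ± 0.17. Vldlr, the very low density lipoprotein receptor, Car11, a carbonic anhydrase-related protein, and Prmt8, an arginine methyltransferase, were undetected on every day 3 array and at least 2.6-fold, at least 2.12-fold and at least 2.03-fold lower there. For all 24 genes the highest adjusted p over all alternative analyses, those leaving out 1 array included, was 0.00265.

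**Figure D2:**
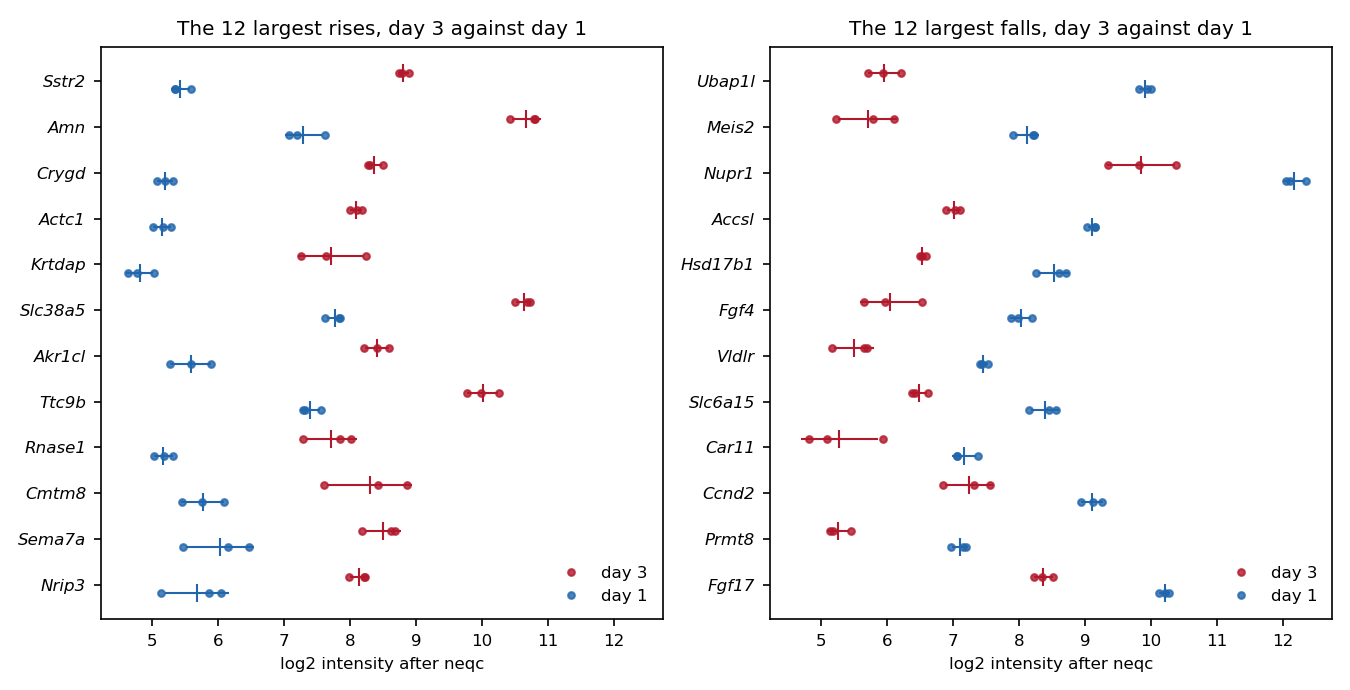
Log2 intensity (horizontal axes) of the 12 largest rises and the 12 largest falls, with a point per array, a tick at the mean and a bar of 1 SD for 3 arrays of day 3 and 3 of day 1. The days do not overlap for any of the 24 genes, which was a condition of their choice, and Ubap1l shows the widest gap.

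The sequence before the start is shown for Sstr2 and Amn, first among the rises, and for Ubap1l and Meis2, first among the falls, because these genes carry strong changes of level. Each is the 250 bases before the RefSeq start in build GRCm38.p6, 5′ to 3′ along the gene, and capitals mark matches on either strand to the TATA box TATAAA, the box CCAAT that NF-Y binds, the E-box CACGTG, the GC box GGGCGG or the AP-1 motif TGANTCA. Sstr2 lies at chr11:113619077-113619326 (+), Amn at chr12:111270846-111271095 (+), Ubap1l at chr9:65360779-65361028 (+) and Meis2 at chr2:116064620-116064869 (-).
Sstr2: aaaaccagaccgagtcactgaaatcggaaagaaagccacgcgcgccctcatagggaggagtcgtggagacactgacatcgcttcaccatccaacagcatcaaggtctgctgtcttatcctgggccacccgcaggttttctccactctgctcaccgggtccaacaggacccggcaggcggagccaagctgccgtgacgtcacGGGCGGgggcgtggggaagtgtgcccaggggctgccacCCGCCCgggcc
Amn: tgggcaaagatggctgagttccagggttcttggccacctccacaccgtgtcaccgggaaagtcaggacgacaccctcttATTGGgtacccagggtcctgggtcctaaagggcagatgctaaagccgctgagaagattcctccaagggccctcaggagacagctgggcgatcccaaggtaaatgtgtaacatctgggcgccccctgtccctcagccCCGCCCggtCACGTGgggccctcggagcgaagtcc
Ubap1l: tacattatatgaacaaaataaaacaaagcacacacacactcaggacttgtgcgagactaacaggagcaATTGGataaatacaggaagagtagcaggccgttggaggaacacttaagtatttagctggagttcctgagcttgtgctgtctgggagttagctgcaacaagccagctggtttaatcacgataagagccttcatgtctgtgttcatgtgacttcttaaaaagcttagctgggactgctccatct
Meis2: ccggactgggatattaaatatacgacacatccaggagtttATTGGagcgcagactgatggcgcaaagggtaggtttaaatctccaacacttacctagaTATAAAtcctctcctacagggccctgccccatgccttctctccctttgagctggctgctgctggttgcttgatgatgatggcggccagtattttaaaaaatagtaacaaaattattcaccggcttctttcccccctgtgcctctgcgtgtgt
Sstr2 and Amn hold GGGCGG matches, the first 49 bases before the start in Sstr2 and 35 before it in Amn, and Amn also holds CACGTG at 26 and CCAAT at 171. No GGGCGG match lies in the windows of Ubap1l and Meis2. Among the next genes, the window of Crygd, a rise, holds no match to any of these motifs. That of Nupr1, a fall, holds GGGCGG at 248 and 89 and CACGTG at 225. Ubap1l holds CCAAT at 182 bases before the start, and Meis2 holds CCAAT at 210 and TATAAA at 152. The ratio of observed to expected CpG was 0.713 in Sstr2, 0.470 in Amn, 0.259 in Ubap1l and 0.497 in Meis2. Such matches describe the letters only.

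A promoter window was at hand for 8066 of the 9934 genes, taking the first start listed where there were several (1637 genes). GGGCGG was present in 67.3% of the 1270 risen and 54.9% of the 1135 fallen genes with a window, against 60.7% of all 8066. TATAAA was present in 7.80% of risen and 6.70% of fallen genes, against 6.77% of all, CCAAT in 35.1% and 33.8% against 36.9%, CACGTG in 7.40% and 8.81% against 8.60%, and TGANTCA in 5.12% and 3.70% against 4.24%. The median CpG ratio was 0.664 in risen and 0.724 in fallen genes, against 0.7505 in genes not called. Genes that rose and were undetected on all day 1 arrays had a median of 0.560 (n = 162), and 37.7% of them had a ratio under 0.4, against 14.3% of all genes not called. The 201 genes not called and likewise undetected on day 1 arrays had a median of 0.562 and 36.8% under 0.4, so the low CpG content was as marked in undetected genes that did not rise. No test was run on these shares.

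**Figure D3:**
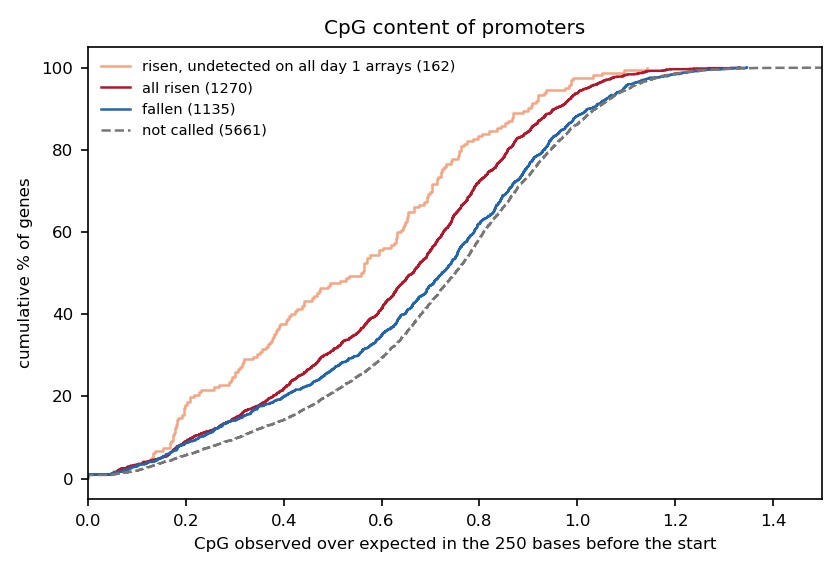
Cumulative percentage of genes (vertical axis) by the ratio of observed to expected CpG in the 250 bases before the start (horizontal axis), for 162 risen genes undetected on all day 1 arrays, all 1270 risen, 1135 fallen and 5661 genes not called. The curve of the undetected risen genes lies furthest left, with a median of 0.560, and that of genes not called furthest right, with a median of 0.7505.

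Many acetyltransferase genes fell. Of 19 measured genes of histone acetyltransferases and their complex subunits, 11 fell (57.9%, against 14.0% of all genes) and 0 rose, with a median difference of -0.45 [-0.50 to -0.30], against -0.0065 for all genes. Tada2a, an adaptor subunit of acetyltransferase complexes, read 7.57, 7.57 and 7.44 on the day 3 arrays, against 8.64, 8.88 and 8.40 on the day 1 arrays, a difference of -1.11 ± 0.18 (adjusted p = 0.000699). Kat2a, the GCN5 acetyltransferase, read 9.58, 9.56 and 9.37 on the day 3 arrays, against 10.23, 10.17 and 10.17 on the day 1 arrays, a difference of -0.69 ± 0.12 (adjusted p = 0.00131). The days did not overlap for either gene. Epc1, a subunit of the TIP60 complex, fell by 1.01 ± 0.23, and Kat2b, also called PCAF, by 0.86 ± 0.26; the other falls were Ep300, Tada3, Kat6b, Kat5, Ing3, Kat8 and Supt7l. With single arrays left out the 11 falls became 6 (day 1 replicate 1), 6 (day 1 replicate 2), 7 (day 1 replicate 3), 7 (day 3 replicate 1), 5 (day 3 replicate 2) and 8 (day 3 replicate 3), and 1 gene of the list fell with no scaling. Kat2b was lost with day 1 replicate 1 or 3 or day 3 replicate 1 or 2 left out (adjusted p of 0.0559 to 0.0999).

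Among 8 measured zinc-dependent deacetylases, 2 rose and 0 fell (25% called, against 30.0% of all genes), with a median of 0.038 [-0.17 to 0.087]. The median was below 0 after scaling to the 75th percentile (-0.046), with no scaling (-0.065), under the stricter filter on dim probes (-0.17) and with day 3 replicate 3 left out (-0.024). Hdac5, a class IIa enzyme, read 10.40, 10.55 and 10.55 on the day 3 arrays, against 10.03, 10.08 and 10.003 on the day 1 arrays, a difference of 0.46 ± 0.11 (adjusted p = 0.00582) with no overlap. Hdac11 was undetected on day 1 arrays and at least 1.05-fold higher. Its call was lost with no background correction and with the deposited normalized values (adjusted p of 0.0558 to 0.0559), which are nearly the same analysis. Scaling to the 75th percentile called 1 fall among the deacetylases, that of Hdac2 given above. A fit that blocks on the replicate number also called 1 fall, as did leaving out day 1 replicate 3, but not of Hdac2. Subunits of the HDAC1/2 corepressor complexes went both ways, with 7 rises and 4 falls of 30 (36.7% called, against 30.0% of all genes) and a median of -0.087 [-0.17 to -0.038].

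The 4 largest corepressor rises were of Sin3 complex genes. Suds3, a Sin3 subunit, read 12.55, 12.50 and 12.55 on the day 3 arrays, against 11.69, 11.84 and 11.63 on the day 1 arrays, a difference of 0.81 ± 0.10 (adjusted p = 0.000108). Ing2, a reader of methylated histone H3 in the same complex, rose by 0.93 ± 0.12 and Sap130 by 0.69 ± 0.14, all without overlap. Sap30l rose by 0.42 ± 0.12, a call lost with day 1 replicate 1 or 2 or day 3 replicate 1 left out (adjusted p of 0.0578 to 0.0854) and with 75th percentile scaling (0.0948); 4 genes of the list rose with day 1 replicate 1 or 2 left out. The falls were of the NuRD subunits Gatad2b (at least 1.62-fold lower and undetected at day 3) and Mbd2 (-0.80 ± 0.16), the CoREST subunit Rcor2 (-0.81 ± 0.21) and the zinc finger gene Trerf1 (at least 1.36-fold lower and undetected at day 3). NuRD genes went both ways, since the NuRD subunit Chd4 was called as a rise.

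Polycomb genes numbered 3 rises and 4 falls of 26 (26.9% called, near the 30.0% of all genes), with a median of -0.16 [-0.24 to -0.061]. The polyhomeotic paralogs, subunits of the complex PRC1, moved in opposite directions. Phc1 read 11.65, 11.46 and 11.92 on the day 3 arrays, against 12.91, 12.91 and 12.91 on the day 1 arrays, a difference of -1.23 ± 0.13 (adjusted p = 3.7e-05). Phc2 read 9.57, 9.65 and 9.84 on the day 3 arrays, against 8.74, 8.85 and 8.73 on the day 1 arrays, a difference of 0.91 ± 0.14 (adjusted p = 0.000486). Neither overlapped between days. Yaf2, another PRC1 subunit, rose by 1.21 ± 0.20. Pcgf5 rose by 0.33 ± 0.10, a call lost with day 1 replicate 1 or 2 or day 3 replicate 1 or 3 left out (adjusted p of 0.062 to 0.106) and under 2 of the other alternatives (0.0694 to 0.18). Of the smaller falls, Pcgf3 was lost with day 1 replicate 2 or 3 or day 3 replicate 2 left out (adjusted p of 0.0646 to 0.0834). Aebp2 was lost with day 1 replicate 3 or day 3 replicate 3 left out (adjusted p of 0.0508 to 0.0659) and Cbx6 with day 1 replicate 1, 2 or 3 or day 3 replicate 1 or 3 left out (adjusted p of 0.0582 to 0.0884). The falls numbered 2 with day 1 replicate 2 left out and 1 with day 1 replicate 3 left out.

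In the DNA methylation machinery, 1 gene rose and 3 fell of 15 (26.7% called, near the 30.0% of all genes; median -0.13 [-0.29 to -0.037]). Dnmt3l, the catalytically inactive partner of the de novo methyltransferases, read 15.15, 14.98 and 14.89 on the day 3 arrays, against 14.13, 14.16 and 14.04 on the day 1 arrays, a difference of 0.89 ± 0.12 (adjusted p = 0.000198). Tet1, which oxidises methylcytosine and is abundant in these cells, read 9.91, 9.52 and 9.60 on the day 3 arrays, against 10.54, 10.54 and 10.72 on the day 1 arrays, a difference of -0.92 ± 0.14 (adjusted p = 0.000389). The days did not overlap for either. Apobec1, a cytidine deaminase gene, fell by 1.05 ± 0.13, and Mbd2, which reads methylated DNA, is given above. Linker and variant histone genes had 4 rises and 1 fall of 22 (22.7% called, against 30.0% of all genes). Their median was 0.059 [-0.084 to 0.15], which was -0.064 after scaling to the 75th percentile and -0.084 with no scaling. H4f16 (0.97 ± 0.24), H2bfm (0.81 ± 0.16) and the linker histone H1f10 (0.52 ± 0.12) rose. Probes of histone genes can cross-hybridise between near-identical copies. Macroh2a1 (0.57 ± 0.19) and H2aj (-0.40 ± 0.14) were called, but Macroh2a1 was lost with day 1 replicate 1, 2 or 3 or day 3 replicate 1 or 2 left out (adjusted p of 0.0506 to 0.139) and under 3 of the other alternatives (0.0607 to 0.1). H2aj was lost with day 1 replicate 1, 2 or 3 or day 3 replicate 1 or 3 left out (adjusted p of 0.0747 to 0.144) and under 3 of the other alternatives (0.064 to 0.0904).

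Some pluripotency factors fell. Of 34 measured, 11 fell (32.4%, against 14.0% of all genes) and 2 rose (5.88%, against 16.0%), with a median of -0.17 [-0.30 to -0.14]. Pou5f1, which encodes OCT4, read 13.10, 13.04 and 12.58 on the day 3 arrays, against 13.69, 13.59 and 13.60 on the day 1 arrays, a difference of -0.72 ± 0.15, or 1.65-fold lower (adjusted p = 0.00292). Nanog read 12.91, 13.37 and 13.56 on the day 3 arrays, against 14.04, 14.03 and 13.84 on the day 1 arrays, a difference of -0.69 ± 0.18 (adjusted p = 0.0137). Both were without overlap between days, but the Nanog call was lost with day 3 replicate 1 left out (adjusted p of 0.0571). Sox2 read 9.30, 9.05 and 9.34 on the day 3 arrays, against 9.27, 9.62 and 9.38 on the day 1 arrays, a difference of -0.19 ± 0.14 that did not pass the test (adjusted p = 0.345).

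The deeper falls were of Prdm14, which helps to hold the naive state and read 6.59, 6.42 and 6.17 on the day 3 arrays, against 8.10, 8.23 and 8.37 on the day 1 arrays (-1.84 ± 0.15, adjusted p = 4.67e-06), and of Fgf4, given above. The Nodal-related ligand Gdf3 read 9.64, 9.68 and 9.43 on the day 3 arrays, against 11.30, 11.09 and 11.30 on the day 1 arrays (-1.65 ± 0.11, adjusted p = 1.76e-06). Lefty1, a Nodal inhibitor, fell by 0.96 ± 0.13. Otx2, a factor of the epiblast and forebrain, read 11.22, 10.89 and 11.45 on the day 3 arrays, against 10.46, 10.61 and 10.60 on the day 1 arrays, a rise of 0.63 ± 0.15 (adjusted p = 0.00812) without overlap. Stat3, through which LIF signals, rose by 0.62 ± 0.18, but was lost with day 1 replicate 1 or day 3 replicate 1 or 3 left out (adjusted p of 0.058 to 0.0848), so that 1 gene rose with day 1 replicate 1 or day 3 replicate 3 left out. The other falls were Jam2, Gbx2, Esrrb, Sall1 and Zfp42. The 8 defining embryonic stem cell markers were detected on all arrays of both days, and their summed intensity was 111383 to 115144 at day 3, against 129643 to 136275 at day 1. The largest part of the sum came from the probe of Dppa5a, which was not called (means of 16.06 at day 3 and 16.04 at day 1). Sox2, Utf1 and Tdgf1 were not called either. In bulk RNA, fewer cells of a type and less RNA per cell cannot be told apart.

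Markers of other fates were mixed. The primed epiblast list had 3 rises and 2 falls of 10 (50% called, against 30.0% of all genes). Its median was 0.098 [-0.041 to 0.20], which was -0.021 after scaling to the 75th percentile and -0.041 with no scaling. The tight-junction gene Cldn6 read 12.31, 12.33 and 12.28 on the day 3 arrays, against 11.09, 11.09 and 11.10 on the day 1 arrays, a difference of 1.22 ± 0.10 (adjusted p = 4.18e-06). Sall2, a zinc finger factor, read 5.79, 5.21 and 5.99 on the day 3 arrays, against 7.53, 7.36 and 7.48 on the day 1 arrays, a difference of -1.79 ± 0.18 (adjusted p = 1.81e-05). Neither gene overlapped between the days. Grhl2 (0.46 ± 0.14) was lost with day 1 replicate 1, 2 or 3 or day 3 replicate 3 left out (adjusted p of 0.0515 to 0.0894) and under 2 of the other alternatives (0.0596 to 0.0626). Lef1 (at least 1.09-fold lower, undetected at day 3) was lost with day 1 replicate 1, 2 or 3 or day 3 replicate 1 or 3 left out (adjusted p of 0.0502 to 0.12) and under 7 of the other alternatives (0.0577 to 0.194), leaving 1 fall.

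In the primitive and visceral endoderm list, 4 genes rose and 1 fell of 15 (33.3% called, near the 30.0% of all genes; median 0.18 [0.086 to 0.27]). Amn led it, Plat, the tissue plasminogen activator, was at least 1.93-fold higher, and Dab2, an endocytic adaptor of visceral endoderm, read 8.37, 8.39 and 8.58 on the day 3 arrays, against 7.54, 7.56 and 7.73 on the day 1 arrays (0.84 ± 0.13, adjusted p = 0.000377) without overlap. Of the 6 defining markers of primitive endoderm with a probe, Gata4, Gata6, Sox17 and Pdgfra were undetected at both days, and the summed intensity of all 6, its largest part from Dab2, was 569.0 to 655.2 at day 3, against 477.7 to 522.5 at day 1. Their part in the rises of Amn and Plat was not tested. Cited1 (0.50 ± 0.16) was lost with day 1 replicate 1 or 2 or day 3 replicate 1 or 2 left out (adjusted p of 0.0685 to 0.131) and under 4 of the other alternatives (0.0581 to 0.074). Sox7 (-0.56 ± 0.18) was lost with day 1 replicate 1, 2 or 3 or day 3 replicate 2 or 3 left out (adjusted p of 0.0546 to 0.108) and under 6 of the other alternatives (0.0589 to 0.221).

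Trophectoderm and placental genes had 8 rises and 4 falls of 20 (40% and 20%, against 16.0% and 14.0% of all genes; median 0.23 [0.13 to 0.33]). Fgfr2, the FGF receptor on which trophoblast depends, read 9.72, 9.83 and 9.77 on the day 3 arrays, against 8.28, 8.30 and 8.30 on the day 1 arrays, a difference of 1.48 ± 0.11 (adjusted p = 2.83e-06). Tfap2c, an AP-2 factor shared by trophoblast and germ cells, read 12.95, 12.98 and 13.20 on the day 3 arrays, against 12.11, 11.9997 and 12.22 on the day 1 arrays, a difference of 0.94 ± 0.11 (adjusted p = 7.79e-05). Both were higher on every day 3 array. Cdx2, a defining trophectoderm factor, went the other way with 7.09, 6.75 and 6.98 on the day 3 arrays, against 7.71, 7.71 and 7.36 on the day 1 arrays (-0.66 ± 0.15, adjusted p = 0.00512), as did Tfap2a (-0.90 ± 0.16), whereas the X-linked homeobox gene Rhox6 rose by 0.98 ± 0.17. The defining markers Elf5 and Eomes were undetected at both days, and the summed intensity of all 7 was 7477 to 7894 at day 3, against 6418 to 7009 at day 1, most of it from the probe of Krt8, which was not called (means of 12.48 at day 3 and 12.21 at day 1). Their part in the rises was not tested. Gata3 (0.95 ± 0.25) was detected on 1 of 3 day 1 arrays, so its size rests partly on values not above background. Its call was lost with day 1 replicate 2 or day 3 replicate 1 left out (adjusted p of 0.0517 to 0.0593). Plac1 (-0.59 ± 0.16) was lost with day 1 replicate 1 left out (adjusted p of 0.052). Rhox5 (-0.46 ± 0.13) was lost with day 1 replicate 1 or 2 or day 3 replicate 1 or 3 left out (adjusted p of 0.0536 to 0.0777).

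Germ layer markers were mostly undetected. Of the neuroectoderm list, 6 of 21 genes were measured, with 1 rise (Map2, 0.40 ± 0.11) and 1 fall (Meis2). Calls made up 33.3%, near the 30.0% of all genes. The median was -0.093 [-0.18 to 0.11], which was above 0 under the stricter filter (0.11) and with day 1 replicate 1 left out (0.0096). Map2, a neuronal microtubule protein, was lost with day 1 replicate 1 or 2 or day 3 replicate 2 left out (adjusted p of 0.0634 to 0.0653). Of the primitive streak and mesoderm list, 7 of 24 were measured, with 2 rises and 1 fall (4 rises with the replicate block, 0 with day 1 replicate 1 or 3 or day 3 replicate 1 left out and 1 with day 1 replicate 2 or day 3 replicate 2 left out) and a median of 0.50 [0.21 to 0.59]. Calls made up 42.9% of it, against 30.0% of all genes. Evx1, a homeobox gene of the streak, read 5.80, 5.74 and 6.09 on the day 3 arrays, against 6.69, 6.69 and 6.604 on the day 1 arrays (-0.79 ± 0.18, adjusted p = 0.00593). It was lower on every day 3 array. The ligand Wnt3a (0.73 ± 0.23) was lost with day 1 replicate 1, 2 or 3 or day 3 replicate 1 or 2 left out (adjusted p of 0.0602 to 0.106), and Msx1 (0.66 ± 0.20) with day 1 replicate 1 or 3 or day 3 replicate 1 or 2 left out (adjusted p of 0.0684 to 0.0995).

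Several genes of the 2-cell stage, which a small fraction of embryonic stem cells express at any time, rose. Of 7 measured of 17, 4 rose (57.1%, against 16.0% of all genes) and 1 fell, with a median of 0.75 [0.42 to 0.92]. The share that rose can be raised by leaving out members that stayed undetected. Zscan4c, of a multicopy zinc finger family, read 13.32, 12.81 and 13.32 on the day 3 arrays, against 11.55, 11.73 and 11.83 on the day 1 arrays, a difference of 1.45 ± 0.15, or 2.72-fold (adjusted p = 3.09e-05). Tcstv1 read 11.27, 11.31 and 11.25 on the day 3 arrays, against 9.95, 10.17 and 9.87 on the day 1 arrays, a difference of 1.28 ± 0.14 (adjusted p = 4.69e-05). The days did not overlap for either gene, and the related Tcstv3 rose by 0.94 ± 0.19 and Arg2, an arginase, by 0.75 ± 0.17. Zscan4 and Tcstv genes have near-identical copies that these probes may not separate. Eif1a (-0.50 ± 0.13) fell, but was lost with day 1 replicate 1 or day 3 replicate 1 left out (adjusted p of 0.055 to 0.0564). Falls numbered 2 with the replicate block, with the intensity trend and with day 3 replicate 2 left out. They also numbered 2 after scaling to the 75th percentile, with no background correction, the deposited values, the stricter filter or the mean of the probes.

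Germline and meiosis genes went both ways, with 6 rises and 4 falls of 24 (41.7% called, against 30.0% of all genes) and a median of 0.05 [0.013 to 0.13]. Taf7l, a germ cell variant of a TFIID subunit, read 10.92, 11.08 and 11.15 on the day 3 arrays, against 9.03, 9.13 and 9.45 on the day 1 arrays, a difference of 1.84 ± 0.15 (adjusted p = 5.05e-06). Asz1, a piRNA pathway gene, read 6.22, 6.34 and 6.204 on the day 3 arrays, against 7.35, 7.11 and 7.37 on the day 1 arrays (-1.02 ± 0.15, adjusted p = 0.000297). Neither overlapped between the days. Tex101 rose by 1.75 ± 0.24, and Hormad2, a meiotic axis protein, and Tdrd12, a piRNA pathway protein, fell by 0.97 ± 0.19 and 0.65 ± 0.13. Sohlh2 (0.78 ± 0.26) was lost with day 1 replicate 1 or 2 or day 3 replicate 2 or 3 left out (adjusted p of 0.0754 to 0.158) and with no filter on dim probes (0.0726). Tdrd9 (at least 1.25-fold higher) was lost with day 1 replicate 1 or 3 or day 3 replicate 1 or 2 left out (adjusted p of 0.0525 to 0.0973) and under 4 of the other alternatives (0.0513 to 0.0779). Dpep3 (at least 1.04-fold lower) was lost with day 1 replicate 1, 2 or 3 or day 3 replicate 3 left out (adjusted p of 0.0536 to 0.117) and under 6 of the other alternatives (0.0577 to 0.177). Without day 1 replicate 1, 3 genes of this list rose.

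Neuronal genes that the repressor REST holds down in non-neuronal cells, in part through HDAC1/2 complexes, were mostly higher at day 3. Of 20 measured, 12 rose (60%, against 16.0% of all genes) and 1 fell, with a median of 0.61 [0.39 to 0.75]. The list, written with earlier results of these data known, holds 45 genes, and those not measured were not tested. Members that stayed undetected are among those left out, which can raise the share that rose. Camk2n2, an inhibitor of the kinase CaMKII, read 10.39, 10.43 and 10.70 on the day 3 arrays, against 8.14, 7.96 and 8.44 on the day 1 arrays, a difference of 2.33 ± 0.19 (adjusted p = 5.02e-06). The neuropeptide gene Gal read 7.50, 8.04 and 8.10 on the day 3 arrays, against 6.02, 5.79 and 5.93 on the day 1 arrays, a difference of 1.97 ± 0.21 (adjusted p = 3.91e-05). Nefm, a neurofilament subunit, read 7.50, 7.51 and 7.51 on the day 3 arrays, against 6.43, 5.50 and 5.999 on the day 1 arrays, a difference of 1.53 ± 0.26 (adjusted p = 0.000972). None of these overlapped between days, and Gal and Nefm were each detected on 1 of 3 day 1 arrays. Ttc9b was given above, and the other rises were Cplx1, Vgf, Chga, Syp, Elavl3, Dnajc12, Syn1 and Stmn3. With day 3 replicate 1 left out, 9 genes of the list rose. Of the 4 defining neuroectoderm markers with a probe, 3 were undetected at both days, Nes alone being detected on all arrays. The one fall, the synaptotagmin Syt4 (-0.59 ± 0.21), was lost with day 1 replicate 1 or 2 or day 3 replicate 1, 2 or 3 left out (adjusted p of 0.0577 to 0.177) and under 6 of the other alternatives (0.0513 to 0.0806), the replicate block among these (0.0521, leaving 0 falls).

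Many genes of the unfolded protein and integrated stress response fell. Of 32 measured, 16 fell (50%, against 14.0% of all genes) and 1 rose, with a median of -0.39 [-0.52 to -0.32]. Chac1, which degrades glutathione and is a target of ATF4, the transcription factor of this response, read 10.13, 10.03 and 9.88 on the day 3 arrays, against 11.88, 11.71 and 11.90 on the day 1 arrays, a difference of -1.82 ± 0.12, or 3.53-fold lower (adjusted p = 1.04e-06). Cth, which makes cysteine, read 8.56, 8.72 and 8.92 on the day 3 arrays, against 9.97, 9.86 and 10.42 on the day 1 arrays, a difference of -1.35 ± 0.20 (adjusted p = 0.000359). The days did not overlap for these or for Nupr1 and Vldlr, given above. The other falls were Trib3, Stc2, Atf5, Edem1, Ddit3, Gpt2, Sesn2, Shmt2, Atf4, Herpud1, Cebpg and Mthfd2, which include the transcription factors ATF4, ATF5 and CHOP and enzymes of serine and one-carbon metabolism. The endoplasmic reticulum chaperone gene Hspa5 had a difference of -0.19 ± 0.18 (adjusted p = 0.475) and Xbp1 one of -0.08 ± 0.14 (adjusted p = 0.727), neither past the test; both were looked up after the values were seen. Sdf2l1 (0.48 ± 0.16) was the rise, lost with day 1 replicate 1 or 3 or day 3 replicate 2 or 3 left out (adjusted p of 0.0622 to 0.155) and under 3 of the other alternatives (0.0699 to 0.0804); 2 genes rose with the replicate block.

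Most amino acid transporters changed, in both directions. Of 18 measured, 9 fell and 5 rose (77.8% called, against 30.0% of all genes), with a median of -0.29 [-0.38 to -0.19]. Slc38a5, given above, had the largest rise of the list, and Slc1a1, a glutamate transporter, read 8.81, 8.42 and 8.62 on the day 3 arrays, against 7.66, 7.47 and 7.26 on the day 1 arrays (1.15 ± 0.14, adjusted p = 0.000108). Slc7a7 rose by 0.75 ± 0.18 and the lysosomal transporter Slc38a9 by 0.64 ± 0.12. Slc7a3, a cationic amino acid transporter, read 12.16, 12.09 and 12.52 on the day 3 arrays, against 13.16, 13.06 and 13.25 on the day 1 arrays (-0.90 ± 0.13, adjusted p = 0.000224). Neither Slc1a1 nor Slc7a3 overlapped between days. Slc43a1 fell by 0.70 ± 0.15, as did Slc38a2, Slc1a4, Slc1a3, Slc38a7 and Slc6a9, and Slc38a1 fell by 0.75 ± 0.18, a call lost with the mean of its probes (adjusted p of 0.0874).

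Few proliferation genes were called. Of 50 mitosis genes, 4 fell and 0 rose (8% called, against 30.0% of all genes; median -0.078 [-0.14 to -0.022]). The falls were of the kinesin Kif18a (-0.64 ± 0.22), the kinetochore genes Zwilch (-0.62 ± 0.19) and Nuf2 (-0.59 ± 0.17) and the cohesin protector Sgo1 (-0.41 ± 0.11). Kif18a was lost with day 1 replicate 1, 2 or 3 or day 3 replicate 1 or 2 left out (adjusted p of 0.0648 to 0.165) and under 2 of the other alternatives (0.0687 to 0.0792). Zwilch was lost with day 1 replicate 1 or 2 or day 3 replicate 1 or 2 left out (adjusted p of 0.0536 to 0.105), Nuf2 with day 1 replicate 1 or 3 or day 3 replicate 2 left out (adjusted p of 0.0653 to 0.0777) and Sgo1 with day 3 replicate 2 left out (adjusted p of 0.0501). The falls numbered 1 with day 1 replicate 1 left out, 2 with day 1 replicate 2 or 3 or day 3 replicate 1 or 2 left out, and 10 with day 3 replicate 3 left out, where 1 gene rose.

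In the replication list, 5 fell and 1 rose of 47 (12.8% called, against 30.0% of all genes). The median was -0.13 [-0.24 to -0.094], with 8 falls and 2 rises under the replicate block. Ccne2, cyclin E2, read 7.42, 7.11 and 7.61 on the day 3 arrays, against 8.29, 7.82 and 8.26 on the day 1 arrays (-0.74 ± 0.16, adjusted p = 0.00429), with no overlap. The polymerase subunit Pold2 (-0.62 ± 0.19) was lost with day 1 replicate 1 or 2 or day 3 replicate 3 left out (adjusted p of 0.0715 to 0.101). The ribonucleotide reductase subunit Rrm1 (-0.58 ± 0.19) was lost with day 1 replicate 1 or 2 or day 3 replicate 2 or 3 left out (adjusted p of 0.0727 to 0.13) and with no filter on dim probes (0.0605). The kinase activator Dbf4 (-0.51 ± 0.14) was lost with day 1 replicate 1 or 3 or day 3 replicate 2 left out (adjusted p of 0.0508 to 0.0727) and with the mean of its probes (0.486). Dut, which rose by 0.51 ± 0.12, was lost with the mean of its probes (adjusted p of 0.389). Falls numbered 2 with day 1 replicate 1 left out and 3 with day 1 replicate 2 or day 3 replicate 2 left out, and rises 2 with day 1 replicate 3 or day 3 replicate 3 left out. Of 12 genes of D-type cyclins, CDK inhibitors and their targets, 3 fell and 1 rose (33.3% called, near the 30.0% of all genes). The median was -0.042 [-0.12 to 0.039], above 0 at 0.039 with day 3 replicate 3 left out. Rises numbered 2 with the replicate block and with day 3 replicate 2 or 3 left out. Beside Ccnd2, Ccnd1 read 11.97, 11.90 and 11.98 on the day 3 arrays, against 12.42, 12.47 and 12.59 on the day 1 arrays (-0.54 ± 0.14, adjusted p = 0.0117), lower on every day 3 array. The retinoblastoma gene Rb1 rose by 0.69 ± 0.19, lost with day 1 replicate 2 left out (adjusted p of 0.0639). Cdkn2a was at least 1.1-fold lower, lost with day 1 replicate 2 or day 3 replicate 2 left out (adjusted p of 0.0624 to 0.0693) and under 5 of the other alternatives (0.0868 to 0.158).

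Of 27 p53 targets, 3 fell and 1 rose (14.8% called, against 30.0% of all genes). The median was -0.092 [-0.18 to -0.044], with 5 falls under the replicate block and with day 3 replicate 3 left out. The death receptor Fas rose by 0.66 ± 0.16 and Ei24 fell by 0.49 ± 0.12. Cdkn1a, which encodes p21 and is the best-known target, had a difference of 0.10 ± 0.11 (adjusted p = 0.51) and Mdm2 one of -0.05 ± 0.12 (adjusted p = 0.817), both looked up after the values were seen. Sesn2 (-0.63 ± 0.15) was lost with the mean of its probes (adjusted p of 0.0682) and Pidd1 (-0.39 ± 0.13) with day 1 replicate 1 or 2 or day 3 replicate 1 or 3 left out (adjusted p of 0.0669 to 0.14) and under 3 of the other alternatives (0.0517 to 0.0838). Apoptosis regulators had 6 rises and 3 falls of 23 (39.1% called, against 30.0% of all genes) and a median of 0.052 [-0.071 to 0.11], which was -0.051 after scaling to the 75th percentile and -0.071 with no scaling.

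The caspase gene Casp6 read 10.05, 10.03 and 9.92 on the day 3 arrays, against 9.21, 9.20 and 8.82 on the day 1 arrays (0.92 ± 0.17, adjusted p = 0.00172). Bcl2l11, which encodes the pro-apoptotic protein BIM, read 10.79, 10.61 and 10.21 on the day 3 arrays, against 9.82, 9.82 and 9.86 on the day 1 arrays (0.70 ± 0.14, adjusted p = 0.00252). Both were higher on every day 3 array. The related BH3-only genes Bik and Bmf rose by 0.67 ± 0.15 and 0.64 ± 0.14. The inhibitor of apoptosis Birc2 and the survival gene Bcl2l2 fell by 0.66 ± 0.15 and 0.53 ± 0.12. Bak1, a pore-forming effector, fell by 0.76 ± 0.25, a call lost with day 1 replicate 1, 2 or 3 or day 3 replicate 1 or 3 left out (adjusted p of 0.0581 to 0.135) and under 4 of the other alternatives (0.0551 to 0.073).

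Many genes of the actin cytoskeleton and adhesion rose. Of 51 measured, 18 rose (35.3%, against 16.0% of all genes) and 0 fell, with a median of 0.31 [0.19 to 0.34]; with day 3 replicate 1 left out, 2 fell. The calcium-binding S100a6 read 11.61, 11.94 and 11.68 on the day 3 arrays, against 10.17, 10.44 and 10.43 on the day 1 arrays, a difference of 1.40 ± 0.14 (adjusted p = 2.67e-05). Myl9, a regulatory myosin light chain, read 9.20, 9.53 and 8.72 on the day 3 arrays, against 7.89, 8.13 and 7.47 on the day 1 arrays, a difference of 1.32 ± 0.21 (adjusted p = 0.000669). Both were without overlap. Ccn2, a target of YAP, rose by 0.92 ± 0.11 and the muscle actin Acta1 by 0.98 ± 0.14. The other rises included tropomyosins (Tpm1, Tpm2, Tpm4), annexins (Anxa2, Anxa5) and integrins (Itga3, Itgb5).

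Of 20 sarcomere genes measured of 33, 10 rose (50%, against 16.0% of all genes) and 1 fell. Leaving out members that stayed undetected can raise the share that rose. The median was 0.28 [0.13 to 0.58] (2 falls with the replicate block and with day 3 replicate 1 or 2 left out). Actc1 read 8.17, 8.11 and 7.99 on the day 3 arrays, against 5.28, 5.01 and 5.16 on the day 1 arrays. Tnnc2, a fast troponin C, read 9.49, 9.62 and 8.58 on the day 3 arrays, against 6.95, 7.18 and 6.33 on the day 1 arrays, a difference of 2.41 ± 0.27 (adjusted p = 4.85e-05). Every day 3 array was above every day 1 array for both, although Tnnc2 was lower on replicate 3 of either day. Nppb, a natriuretic peptide of heart, rose by 1.69 ± 0.25 and Tnni2, a fast troponin I, was at least 1.97-fold higher, whereas Actn3, a fast-fibre actinin, fell by 1.04 ± 0.17. Of the 4 defining mesoderm markers with a probe, none was detected on all arrays of either day and Mixl1 was detected on 2 day 3 arrays.

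Genes often used to mark fibroblasts, most of them of the extracellular matrix, had 5 rises and 0 falls of 8 measured of 25. Rises were 62.5% of those measured, against 16.0% of all genes. Members that stayed undetected are left out, which can raise this share. The median was 0.66 [0.45 to 0.79] (1 fall with the replicate block and with day 1 replicate 3 or day 3 replicate 1 left out). Thy1, a surface glycoprotein, read 12.20, 12.09 and 11.55 on the day 3 arrays, against 10.52, 10.55 and 10.34 on the day 1 arrays, a difference of 1.48 ± 0.16 (adjusted p = 3.93e-05). Fbln2, a matrix fibulin, read 8.07, 7.72 and 7.72 on the day 3 arrays, against 6.07, 6.23 and 6.02 on the day 1 arrays, a difference of 1.73 ± 0.19 (adjusted p = 3.76e-05). There was no overlap for either gene. The collagen gene Col5a1 rose by 0.91 ± 0.13 and the matrix metalloproteinase Mmp2 by 0.68 ± 0.14. The fibroblast-defining Col1a1, Col1a2, Col3a1, Dcn, Lum and Postn were undetected at both days, and the summed intensity of the 7 defining markers, most of it from Thy1, was 3210 to 4921 at day 3, against 1487 to 1745 at day 1.

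Of 36 lysosome and autophagy genes, 12 rose (33.3%, against 16.0% of all genes) and 1 fell. The median was 0.24 [0.13 to 0.32] (3 falls with the replicate block and with day 3 replicate 3 left out, 2 with day 1 replicate 2 left out). The cathepsin Ctsh read 8.25, 8.35 and 8.14 on the day 3 arrays, against 6.92, 6.99 and 6.96 on the day 1 arrays (1.29 ± 0.19, adjusted p = 0.000324). Grn, the lysosomal protein progranulin, read 10.73, 10.64 and 10.75 on the day 3 arrays, against 9.69, 9.60 and 9.83 on the day 1 arrays (1.00 ± 0.12, adjusted p = 7.67e-05). Both were higher on every day 3 array. Ctsl rose by 1.36 ± 0.19 and Map1lc3a, an LC3 protein of autophagosomes, by 0.93 ± 0.14, and Gusb, the lysosomal beta-glucuronidase, fell by 0.65 ± 0.16. Cholesterol synthesis had 7 rises and 0 falls of 17 (41.2% rose, against 16.0% of all genes; median 0.39 [0.22 to 0.45]), 4 rises with day 1 replicate 1 left out and 3 with day 1 replicate 3 or day 3 replicate 1 left out. Pmvk, a mevalonate pathway kinase, rose by 0.60 ± 0.12 and Fdps, a prenyl synthase, by 0.67 ± 0.15, the second lost with the mean of its probes (adjusted p of 0.0568). Dhcr7 (0.59 ± 0.20) was lost with day 1 replicate 2 or 3 or day 3 replicate 1 or 2 left out (adjusted p of 0.091 to 0.139) and under 2 of the other alternatives (0.0525 to 0.0643). Tm7sf2, undetected at day 1, was lost with day 1 replicate 1 or 3 or day 3 replicate 1 or 3 left out (adjusted p of 0.0616 to 0.157) and under 6 of the other alternatives (0.0513 to 0.131).

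Interferon response and antigen presentation genes went both ways. Of 25 measured, 9 rose and 4 fell (36% and 16%, against 16.0% and 14.0% of all genes; median 0.19 [0.019 to 0.34]). The antigen presentation genes B2m, which read 11.50, 11.65 and 11.69 on the day 3 arrays, against 10.67, 10.74 and 10.83 on the day 1 arrays (0.86 ± 0.12, adjusted p = 0.000217), Tap2 (at least 1.02-fold higher), Psmb9, H2-K1, H2-D1 and H2-T23 were among the rises, as were Ifi30 (0.95 ± 0.16) and Rsad2 (at least 2.14-fold higher). The falls were Ifitm3, which read 12.47, 12.65 and 11.95 on the day 3 arrays, against 13.35, 13.37 and 13.20 on the day 1 arrays (-0.95 ± 0.16, adjusted p = 0.00103), Ifitm1 (-0.57 ± 0.14), Irf9, a transcription factor of interferon signalling (-0.78 ± 0.16), and Ifit2 (-0.83 ± 0.24). Neither B2m nor Ifitm3 overlapped between the days. Ifit2 was lost with day 1 replicate 1 or 3 left out (adjusted p of 0.0598 to 0.0635) and with 6 arrays alone (0.0624).

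Immediate-early genes had 8 rises and 3 falls of 19 (42.1% rose, against 16.0% of all genes; median 0.25 [0.16 to 0.47]). Dusp4, a phosphatase that switches off MAP kinases, read 11.13, 10.82 and 10.92 on the day 3 arrays, against 9.43, 8.91 and 9.29 on the day 1 arrays, a difference of 1.74 ± 0.14 (adjusted p = 5.02e-06). The AP-1 gene Junb read 10.51, 10.59 and 10.26 on the day 3 arrays, against 9.50, 9.49 and 9.54 on the day 1 arrays, a difference of 0.95 ± 0.13 (adjusted p = 0.000245). Fos rose by 0.95 ± 0.17 and Dusp2 was at least 3.02-fold higher, and day 3 lay above day 1 on every array for all of them. The ETS factors Etv5 (-0.52 ± 0.14) and Etv4 (-0.44 ± 0.14), targets of FGF signalling, and Myc fell. Myc was detected on 0 of 3 day 3 and 1 of 3 day 1 arrays, so no size is given for it. Etv5 was lost with day 1 replicate 1 or 2 or day 3 replicate 3 left out (adjusted p of 0.0502 to 0.062) and Etv4 with day 1 replicate 1, 2 or 3 or day 3 replicate 2 or 3 left out (adjusted p of 0.0586 to 0.11) and under 3 of the other alternatives (0.0545 to 0.0557). Myc was lost with day 1 replicate 1, 2 or 3 or day 3 replicate 1 or 2 left out (adjusted p of 0.052 to 0.183) and under 7 of the other alternatives (0.053 to 0.211). This left 0 falls with day 1 replicate 1 or 2 left out and 1 fall with day 1 replicate 3 or day 3 replicate 2 or 3 left out.

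Imprinted genes had 8 rises and 2 falls of 21 (38.1% rose, against 16.0% of all genes; median 0.42 [0.21 to 0.42]), 5 rises with day 1 replicate 1 left out and 4 falls with day 3 replicate 3 left out. Nnat, a paternally expressed gene of neural tissue, read 8.87, 9.06 and 8.45 on the day 3 arrays, against 6.19, 6.75 and 6.39 on the day 1 arrays, a difference of 2.35 ± 0.19, or 5.09-fold (adjusted p = 4.88e-06). Igf2, the growth factor, read 12.09, 12.10 and 12.04 on the day 3 arrays, against 11.24, 11.12 and 11.37 on the day 1 arrays (0.83 ± 0.13, adjusted p = 0.000386). Both were higher on every day 3 array. Igf2r, the maternally expressed clearance receptor of IGF2, rose by 0.71 ± 0.13, and Peg3 by 0.87 ± 0.16. The maternally expressed growth restrainers Phlda2 and Grb10 fell by 0.78 ± 0.16 and 0.76 ± 0.11.

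Glycolysis and hypoxia-responsive genes had 3 rises and 5 falls of 29 (27.6% called, near the 30.0% of all genes; median -0.21 [-0.32 to -0.15]), with 9 falls under the replicate block and 1 rise with day 1 replicate 2 or 3 or day 3 replicate 1 or 2 left out. Tpi1, the triose phosphate isomerase, read 13.50, 13.58 and 13.59 on the day 3 arrays, against 14.37, 14.42 and 14.45 on the day 1 arrays (-0.86 ± 0.10, adjusted p = 8.26e-05). Slc2a1, the glucose transporter GLUT1, read 12.64, 12.64 and 12.59 on the day 3 arrays, against 13.52, 13.44 and 13.38 on the day 1 arrays (-0.82 ± 0.11, adjusted p = 0.000134). Both were lower on every day 3 array. The enolase Eno3 fell by 1.08 ± 0.18, and Hk1, hexokinase 1, rose by 0.98 ± 0.20. Eno2 (0.70 ± 0.19) was lost with day 1 replicate 2 or 3 or day 3 replicate 1 or 2 left out (adjusted p of 0.053 to 0.0634). Ankrd37 (0.33 ± 0.11) was lost with day 1 replicate 1, 2 or 3 or day 3 replicate 1 or 2 left out (adjusted p of 0.0709 to 0.0882) and under 2 of the other alternatives (0.0535 to 0.104). Pgam1 (-0.43 ± 0.12) was lost with day 1 replicate 2 left out (adjusted p of 0.0852) and with the mean of its probes (0.0502).

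Respiratory chain and ribosomal protein genes were among the lists with the fewest calls. Of 50 respiratory chain genes, 1 rose and 0 fell (2% called, against 30.0% of all genes; median -0.023 [-0.20 to 0.0065]). Of 49 ribosomal protein genes, 2 rose and 1 fell (6.12% called), with a median of -0.0056 [-0.14 to 0.084], which was above 0 after cyclic loess (0.084) and with day 3 replicate 1 left out (0.0093). The respiratory chain median was above 0 with day 3 replicate 3 left out (0.0065). Rpl22 rose by 0.55 ± 0.10 (adjusted p = 0.00164). The complex I subunit Ndufa10 (0.44 ± 0.13) was lost with day 1 replicate 1 or 3 or day 3 replicate 2 left out (adjusted p of 0.0633 to 0.0747) and with 75th percentile scaling (0.157). Rpl21 (0.41 ± 0.12) was lost with day 1 replicate 1 or 3 or day 3 replicate 1 or 2 left out (adjusted p of 0.0634 to 0.0905) and under 3 of the other alternatives (0.0569 to 0.0858). Rpl4 (-0.34 ± 0.12) was lost with day 1 replicate 1 or 2 or day 3 replicate 1, 2 or 3 left out (adjusted p of 0.0766 to 0.183) and under 4 of the other alternatives (0.0569 to 0.369). The respiratory chain had 2 rises with the replicate block and 1 fall with day 1 replicate 3 left out.

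Other settings moved some of these counts by more than 1.5 times. After scaling to the 75th percentile, 3 germline and 3 corepressor genes rose, and 7 corepressor, 7 Polycomb, 8 mitosis, 10 replication, 5 p53 target, 3 respiratory chain and 10 glycolysis genes fell, with 9 glycolysis falls under the intensity trend. With no background correction, 5 replication and 4 respiratory chain genes rose. With no filter on dim probes, 3 cholesterol genes rose and 1 immediate-early gene fell.

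**Figure D4:**
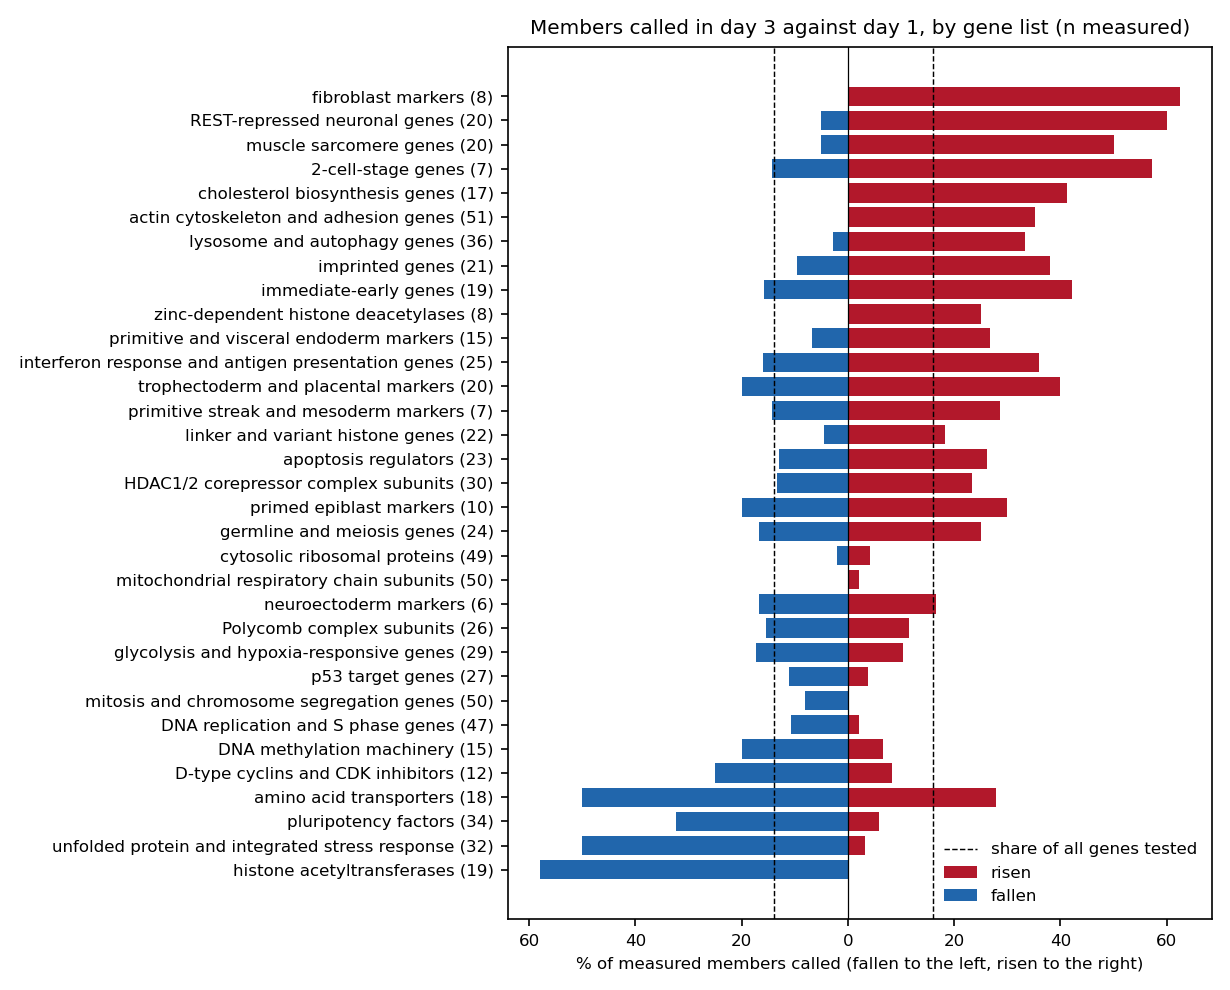
Percentage of the measured members of each of 33 gene lists that fell (to the left) or rose (to the right) in day 3 against day 1, with the number measured in brackets and dashed lines at the 14.0% of all genes that fell and the 16.0% that rose. Fibroblast, REST-repressed and 2-cell-stage genes extend furthest to the right, and acetyltransferase, stress response and amino acid transporter genes furthest to the left.

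The arrays of day 2 allow the course between both days to be described. The day 2 mean lay between the day 1 and day 3 means for 1318 of 1591 rises and 1116 of 1388 falls. A contrast of day 2 against the mean of days 1 and 3 called 237 genes (2.39% of 9934). Day 2 lay above the line in 165 (1.66%) and below it in 72 (0.725%). This estimate is uncorrelated with the difference between days 1 and 3. Both tests share 1 estimate of spread per gene, so their calls are not independent. Of the 237 genes, 44 rises and 35 falls had day 2 above the line and 28 rises and 14 falls had it below. The other 86 above and 30 below had no called difference between days 1 and 3. The count was 549 in the fit that blocks on the replicate number. Leaving out an array gave 544 (day 3 replicate 3), 111 (day 1 replicate 1), 103 (day 1 replicate 2), 125 (day 1 replicate 3), 137 (day 3 replicate 1) and 142 (day 3 replicate 2).

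Egr1, an immediate-early zinc finger factor, peaked at day 2. It read 10.25, 10.29 and 10.44 on day 1, 11.75, 11.83 and 11.70 on day 2 and 11.02, 11.04 and 11.17 on day 3, and lay 1.06 ± 0.10 above the line (adjusted p = 0.000745). Tmc7, a transmembrane channel-like gene, read 7.56, 7.43 and 7.59 on day 1, 8.21, 8.26 and 8.65 on day 2 and 6.43, 5.63 and 6.71 on day 3, and lay 1.48 ± 0.20 above it (adjusted p = 0.00768). No day 2 array of these genes overlapped with day 1 or day 3. Cd164l2, undetected on day 1 and detected on all day 2 and 2 day 3 arrays, and Camk2n1, the paralog of Camk2n2 (1.03 ± 0.17), were the other genes furthest above the line, Camk2n1 having a difference of day 3 from day 1 of -0.64 ± 0.19 that was lost with day 1 replicate 1 or 2 or day 3 replicate 1 left out (adjusted p of 0.0679 to 0.0975) and with the mean of its probes (0.37).

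Below the line, Akr1cl read 5.89, 5.28 and 5.59 on day 1, 6.06, 5.998 and 5.82 on day 2 and 8.22, 8.59 and 8.41 on day 3 and was detected on 0, 2 and 3 arrays of these days (adjusted p = 0.00901). Celf5, an RNA-binding protein gene, read 5.77, 5.77 and 5.81 on day 1, 5.56, 5.28 and 5.76 on day 2 and 6.85, 7.32 and 6.82 on day 3 and was detected on 0, 0 and 3 arrays. No distance from the line is given for either or for Cd164l2, since their day 1 values were not above background. Exoc3l (-1.04 ± 0.20) and the antisense transcript Rab26os (-0.80 ± 0.14) dipped at day 2, with means of 7.37, 6.84 and 8.38 and 12.80, 11.59 and 11.96 on days 1, 2 and 3.

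**Figure D5:**
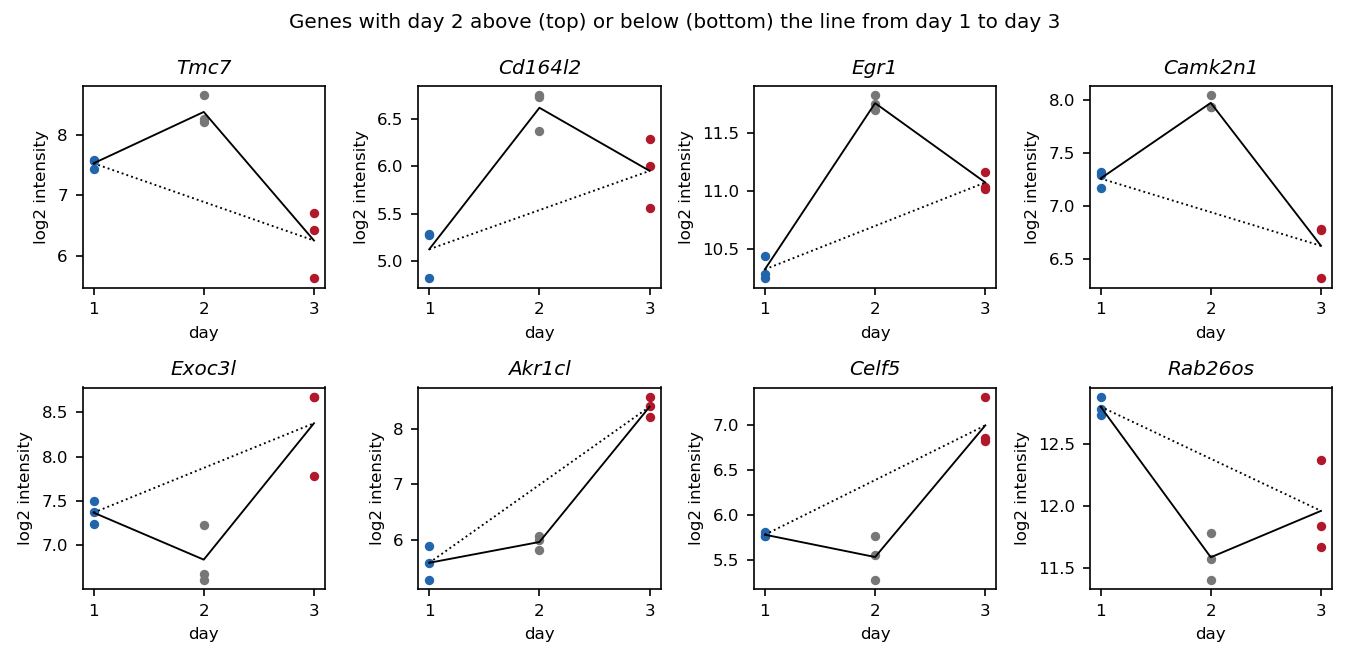
Log2 intensity (vertical axes) on days 1, 2 and 3 (horizontal axes) of the 4 called genes furthest above and the 4 furthest below the line, with a point per array, a solid line through the means and a dotted line from the day 1 mean to the day 3 mean. Egr1 and Tmc7 are highest at day 2, and Akr1cl and Celf5 are plotted highest at day 3.

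Changes were spread over the chromosomes. The share of genes that rose was 11.98% on chromosome 3 and 19.8% on chromosome 12, the lowest and the highest, and the share that fell was 9.89% on chromosome 10 and 17.05% on chromosome 6. On the X chromosome 17.8% rose and 16.6% fell.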

How the data were processed

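RNA of 12 arrays was measured, 6 of which (3 of day 3 and 3 of day 1) enter the comparison. The deposited intensity is the bead signal of each of 45281 probes on a linear scale, made with GenomeStudio per the submitters' processing notes, and a deposited detection p-value stands beside it. The authors' second deposited table holds a normalized intensity and was used only as an alternative. How it was normalized is not given in the sources used here. It gave 3111 calls, against 3113 for quantile normalization with no background correction. A count of alternatives that holds both therefore holds nearly the same analysis again. No column was left unused (0 columns).

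For the report, neqc (limma 3.58.1, R 4.3.3) took the background from the detection p-values, added an offset of 16, made quantiles equal between arrays and gave log2 values. The offset draws low values together, so fold changes of dim genes are understated. A detection p below 0.01 on 3 or more of the 12 arrays was required, which kept 17337 probes. Of all probes, 34885 have 1 gene symbol, 18 several and 10378 none in the series' platform annotation. The probe with the highest mean stands for each of 9934 genes, of which 3557 had more than 1 kept probe. All 12 arrays entered lmFit and eBayes, each day having its own mean and all days sharing 1 estimate of spread. "At least" folds replace folds where a gene was undetected on every array of a day: the dim day takes, on each array, the higher of its own value and the lowest value of a detected probe. The fit was tested on simulated arrays with 200 genes changed. It called 20% of log2 changes of 0.5 and 14% of those of -0.5, so changes of that size are often missed. For changes of 1 and -1 the shares were 84% and 74%, and 4 unchanged genes were called. Far more genes were called in the data than were changed in the simulation, so the shares may differ there.

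Named genes are the 12 largest rises and falls, the 4 called genes furthest above and below the day 1 to day 3 line, up to 4 rises and falls of each of 33 lists, and Hdac2, Pou5f1, Sox2 and Nanog. Hdac1 was planned as well but had no probe analysed. The members and lists were chosen with earlier results of these data known. Deviations of same-numbered day 3 and day 1 arrays from their day means correlated at 0.188, 0.178 and 0.385, against -0.333 to 0.186 for arrays of different number. Each same-number value passed the 0.1 at which the replicate number was taken to pair the arrays. Day 3 replicate 1 and day 1 replicate 2 (0.186) passed it too, so the rule does not single out pairing by number. Deviations from a mean of 3 arrays cancel out, which pulls the other values down. The main fit does not use the replicate number, and the fit with it as a block is given where it changes a call. The precision is limited by 3 arrays a day. Alternatives were scaling to the 75th percentile, cyclic loess, no scaling, no background correction, the deposited normalized values, no filter or a stricter filter on dim probes, the 6 arrays alone, the mean of a gene's probes, the replicate block, an intensity trend, and leaving out each array in turn. Promoter windows are RefSeq's, of build GRCm38.p6.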

Additional observations from a re-analysis of the deposited data

How the results depend on the processing

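The 2979 calls became 2210 to 3025 when 1 array was left out, 3588 with the replicate number as a block, and 549 with no scaling between arrays (356 rises and 193 falls). The other alternatives gave between 2564 and 3153. The 237 genes off the day 1 to day 3 line became 39 with no scaling, 382 with no background correction or with the deposited normalized values, 148 with no filter on dim probes, 549 with the replicate block, and 103 to 544 when 1 array was left out; the 6 arrays alone give no such value. The cause of these shifts was not tested. Rises were 53.4% of all calls, 45.2% after scaling to the 75th percentile, 58.7% after cyclic loess and 64.8% with no scaling. Of 3240 values of 191 named genes under the alternatives, 2843 stayed on their side of the threshold, 396 fell short of it in the same direction, 1 (Hdac2) passed it and 0 changed direction. The replicate block ended 1 of the 189 calls of named genes, that of Syt4. Arrays give no counts, and dim genes near background are limited to bounds.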

Other observations

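Of 1053 called genes with another kept probe, 117 had another probe whose difference ran in the opposite direction, so the value of a gene rests on the probe that stands for it. The calls of Camk2n1, Dut, Dbf4, Sesn2, Slc38a1, Pgam1 and Fdps ended when the probes of a gene were averaged, with adjusted p of 0.37, 0.389, 0.486, 0.0682, 0.0874, 0.0502 and 0.0568. In all, 11 of the 189 calls of named genes ended under this setting, those of Sox7, Cdkn2a, Rpl21 and Rpl4 included.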
